A study of Arabidopsis thaliana with 6 samples.

Results

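Transcript levels of 10 genes that make, perceive or answer to salicylic acid were compared between seedlings of the Arabidopsis thaliana mutant line cnd1-3 and seedlings of the wild type Col-0. The genes were chosen by locus as EDS1, PAD4, SAG101, ICS1, EDS5, PBS3, NPR1, PR1, PR2 and PR5, and they are 10 of the 32948 genes in the table. Messenger RNA was sequenced in 3 libraries of cnd1-3 and 3 of Col-0, with 22125814 to 23081866 reads assigned to genes in cnd1-3 and 23290031 to 30455907 in Col-0. The labels give genotype and tissue. For seedling age, growth conditions, treatment and the nature of the cnd1-3 allele, the sources used here give nothing. Nor do they say that replicates were grown apart, so p-values measure only the spread between these 6 libraries, which may be technical. The mutant gene could not be checked, because CND1 was not matched to a locus. Of the tissue markers, those of leaf mesophyll were abundant in all libraries (4 genes, summed FPKM of 26091 to 27960 in cnd1-3 and 25350 to 28656 in Col-0). The root markers EXPA7, COBL9, CASP1 and PHT1;1 together reached no more than 0.115 FPKM in cnd1-3 and 0.0475 in Col-0, EXPA7 and PHT1;1 being listed at 0 throughout, although the material is labelled seedling. Exon sequence that the root markers may share with other genes was not examined. Whether roots were removed is not stated.

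Salicylic acid is a plant defence hormone that accumulates after infection by biotrophic pathogens and drives local and systemic resistance. EDS1 pairs with PAD4 or SAG101 downstream of intracellular immune receptors and raises hormone production. In the main route of synthesis ICS1 makes isochorismate in the plastid, EDS5 exports it and PBS3 couples it to glutamate, after which the conjugate breaks down to salicylic acid. NPR1 binds the hormone and acts as a coactivator with TGA transcription factors, and PR1, PR2 and PR5 are the classical secreted proteins whose transcripts mark the response.

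Levels are FPKM, reads per gene scaled to exon length and library size, and so can be compared between genes. Of the 10 genes, 9 passed the minimum mean level of 0.5 FPKM for testing. PBS3 fell and PR5 rose in cnd1-3, and the other 7 tested genes did not pass (limma, Benjamini-Hochberg adjusted p under 0.05 over all 17096 tested genes). At an unadjusted p under 0.05 stood 5 of the 9, beside 28.6% of all tested genes. Over all tested genes 11.1% were called, 3.5% higher and 7.59% lower in cnd1-3. The split depends on scaling: falling genes were 68.5% of all calls as deposited, 54.2% after median-ratio scaling and 50.5% after quantile normalization. The 2 calls are 22.2% of the 9 genes, a difference of a single gene from the share over all genes. The median log2 fold change of the 9 genes was -0.13, beside -0.05 for all tested genes. Fold changes are on the log2 scale of FPKM plus 0.5, which understates differences of low genes.

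**Figure D1:**
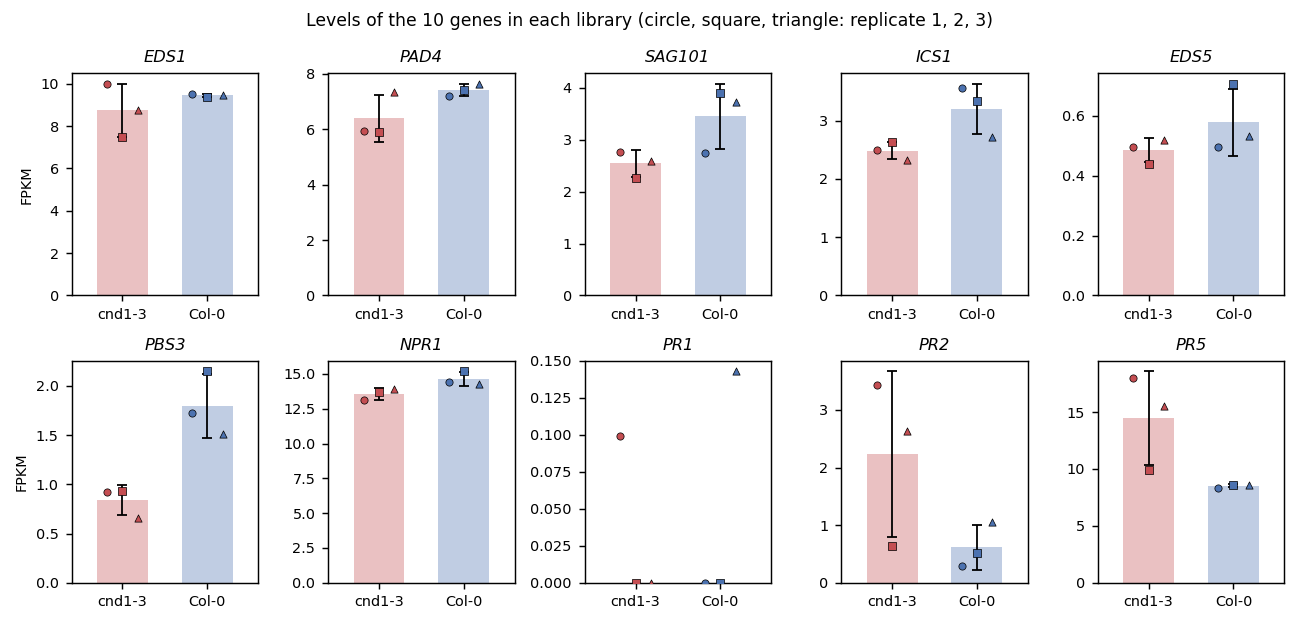
FPKM of the 10 genes in each library, with 3 points for cnd1-3 on the left and 3 for Col-0 on the right of each panel; bars are means and error bars the SD (n = 3), left out for PR1, which is listed at 0 in 4 of 6 libraries. The PBS3 points of cnd1-3 (0.662 to 0.932 FPKM) lie below those of Col-0 (1.51 to 2.15), and the PR5 points of cnd1-3 (9.95 to 18) above those of Col-0 (8.37 to 8.63).

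The sequences around the annotated starts of ICS1 and PBS3, a pair of genes of synthesis, and of PR2 and PR5, a pair of response genes, are shown because these are the genes whose values differed most between the genotypes or lead the pathway. Each runs 5′ to 3′ from 250 bases before to 50 bases after the gene start in RefSeq's TAIR10.1 assembly, and capitals mark matches on either strand to 4 motifs: TTGAC, the core bound by WRKY factors; TGACG, bound by TGA factors; ACGCGT, bound by CAMTA factors; and GAAATTT, bound by CBP60g and SARD1.
ICS1 promoter, chr1:28070045-28070344, plus strand: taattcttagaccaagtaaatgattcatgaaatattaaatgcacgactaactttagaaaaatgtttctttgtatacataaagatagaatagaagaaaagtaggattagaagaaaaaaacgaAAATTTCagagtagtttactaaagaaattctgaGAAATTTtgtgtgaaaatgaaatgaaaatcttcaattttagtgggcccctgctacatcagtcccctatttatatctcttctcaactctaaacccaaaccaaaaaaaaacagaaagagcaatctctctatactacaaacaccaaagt
PBS3 promoter, chr5:4267206-4267505, plus strand: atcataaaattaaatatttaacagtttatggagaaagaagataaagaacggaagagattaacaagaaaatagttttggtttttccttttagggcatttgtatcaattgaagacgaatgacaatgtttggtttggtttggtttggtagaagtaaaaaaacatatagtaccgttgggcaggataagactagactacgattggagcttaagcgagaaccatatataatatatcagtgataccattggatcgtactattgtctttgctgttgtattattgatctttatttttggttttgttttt
PR2 promoter, chr3:21189918-21190217, minus strand: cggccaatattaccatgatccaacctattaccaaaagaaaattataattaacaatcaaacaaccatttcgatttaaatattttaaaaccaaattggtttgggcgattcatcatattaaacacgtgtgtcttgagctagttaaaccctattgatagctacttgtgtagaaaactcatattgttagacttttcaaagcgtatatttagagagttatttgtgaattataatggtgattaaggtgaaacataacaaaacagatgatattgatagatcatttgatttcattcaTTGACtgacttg
PR5 promoter, chr1:28177420-28177719, plus strand: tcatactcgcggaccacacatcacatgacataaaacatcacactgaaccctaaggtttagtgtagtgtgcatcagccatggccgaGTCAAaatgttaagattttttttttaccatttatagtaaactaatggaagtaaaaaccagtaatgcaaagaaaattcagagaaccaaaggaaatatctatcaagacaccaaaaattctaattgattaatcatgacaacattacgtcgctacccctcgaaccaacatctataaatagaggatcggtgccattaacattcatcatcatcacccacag
In ICS1 the capitals are a pair of GAAATTT matches, 129 and 96 bases before the start. In PR5 they are 1 TTGAC match 165 bases before the start, and in PR2 1 TTGAC match 38 bases after it. The PBS3 window held none of the 4 motifs. Across the 10 genes TTGAC occurred in 7 windows, GAAATTT in 1, and TGACG and ACGCGT in 0, against 50.5%, 14.2%, 23.1% and 2.1% of 27443 nuclear protein-coding genes' windows of the same length. TTGAC and TGACG share the letters TGAC, so that a single TTGACG would match both. A match is a match of letters and no evidence of binding. Sequence outside these windows was not searched, so a gene without a match may have the motif elsewhere.

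The receptor-proximal genes EDS1, PAD4 and SAG101 did not pass the test. EDS1 (AT3G48090, chromosome 3, 17755329 to 17758147 in TAIR10.1, minus strand), a lipase-like protein, had 10, 7.49 and 8.75 FPKM in the cnd1-3 libraries, against 9.50, 9.39 and 9.48 in Col-0. The Col-0 values were almost equal and fell within the cnd1-3 range. Its log2 fold change was -0.11 (95% interval -0.35 to 0.12, limma adjusted p = 0.515). PAD4 (AT3G52430), its lipase-like partner in basal resistance, had 5.93, 5.89 and 7.36 FPKM in cnd1-3, against 7.21, 7.40 and 7.64 in Col-0. Replicates 1 and 2 of cnd1-3 lay below every Col-0 library and replicate 3 lay among them. For PAD4 the log2 fold change was -0.21 (interval -0.43 to 0.02, adjusted p = 0.219). SAG101 (AT5G14930), the partner of EDS1 in cell death signalling, had 2.77, 2.26 and 2.60 FPKM in cnd1-3, against 2.74, 3.90 and 3.72 in Col-0. The groups overlapped by a single pair of values, cnd1-3 replicate 1 and Col-0 replicate 1. Its log2 fold change was -0.37 (interval -0.69 to -0.05, unadjusted p = 0.0286, limma adjusted p = 0.126).

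EDS1 has a neighbouring copy on chromosome 3, AT3G48080 (17752463 to 17755190, minus strand), which the annotation describes only as an alpha/beta-hydrolase superfamily protein. It fell in cnd1-3 while EDS1 did not pass. AT3G48080 had 0.226, 0.316 and 0.404 FPKM in cnd1-3, from 13, 18 and 24 reads, against 0.994, 1.27 and 1.22 in Col-0, from 78, 86 and 73 reads. All cnd1-3 values lay below all Col-0 values, and the mean was 3.68-fold lower in cnd1-3. The log2 fold change was -1.03 (SE 0.18, limma adjusted p = 0.00871). The call held in all 6 fits that each left out 1 library (adjusted p of 0.018 to 0.0405). The longest identical stretch of exon sequence in EDS1 and AT3G48080 was 72 bases, shorter than the 150-base reads, and 0.919% of the 50-base words of EDS1 occurred in the copy. AT3G48080 overlaps AT3G48070 on the opposite strand, and the labels do not say that strand was kept. AT3G48070 averaged 15.3 ± 0.5 FPKM in cnd1-3, against 14.6 ± 0.515 in Col-0 (SD, n = 3 each), with a log2 fold change of 0.07 (limma adjusted p = 0.581).

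Of the 3 synthesis genes, PBS3 fell and ICS1 and EDS5 did not pass. ICS1 (AT1G74710, EDS16 in the annotation, chromosome 1, 28070295 to 28074177, plus strand) had 2.49, 2.63 and 2.33 FPKM in cnd1-3, against 3.55, 3.33 and 2.72 in Col-0. The groups did not overlap, which was true of 33.9% of all tested genes and of 4 of the 9 tested here. The log2 fold change was -0.31 (interval -0.58 to -0.03, unadjusted p = 0.0329, limma adjusted p = 0.136). EDS5 (AT4G39030), the transporter that exports isochorismate from the plastid, was the lowest of the tested 9. It had 0.496, 0.440 and 0.517 FPKM in cnd1-3, from 25, 22 and 27 reads, against 0.494, 0.706 and 0.532 in Col-0, from 34, 42 and 28 reads. The values overlapped, with Col-0 replicate 2 highest (log2 fold change -0.13, interval -0.53 to 0.28, limma adjusted p = 0.689). EDS5 overlaps AT4G39040 on the opposite strand, a far more abundant gene (58.9 ± 3.57 FPKM in cnd1-3, against 74.8 ± 10.1 in Col-0).

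PBS3 (AT5G13320, chromosome 5, 4267456 to 4271064, plus strand), the GH3-type enzyme that couples isochorismate to glutamate, had 0.924, 0.932 and 0.662 FPKM in cnd1-3, from 54, 54 and 40 reads. In Col-0 it had 1.72, 2.15 and 1.51 FPKM, from 137, 148 and 92 reads. Every cnd1-3 library was lower than every Col-0 library, and the mean of 0.839 ± 0.154 FPKM in cnd1-3 against 1.79 ± 0.326 in Col-0 (SD, n = 3 each) was 2.13-fold lower. On the log2 scale the difference was -0.77 (SE 0.16, limma adjusted p = 0.0213). The direction held in all 14 alternatives that tested the gene. The call was lost without cnd1-3 replicate 1 or 3 (adjusted p = 0.0534 and 0.0647), or Col-0 replicate 1 or 2 (0.0518 and 0.0741), and at a minimum of 2 FPKM PBS3 was not tested.

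ICS2 (AT1G18870), the second isochorismate synthase gene, shared no exon stretch longer than 23 bases with ICS1. It had 0.662, 0.711 and 0.846 FPKM in cnd1-3, against 1.36, 1.21 and 0.552 in Col-0. Col-0 replicates 1 and 2 were above all cnd1-3 libraries and replicate 3 was below them (log2 fold change -0.27, limma adjusted p = 0.474). The pattern of ICS1 over the 6 libraries was most like that of CYP705A22 (AT3G20130), AT3G53440 and AT1G27700, with Pearson's r of 0.998, 0.996 and 0.994 on log2 of FPKM plus 0.5. With 6 libraries in 2 genotypes, 794 tested genes reached an r over 0.9.

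NPR1 (AT1G64280, chromosome 1, 23852748 to 23855658, minus strand), the hormone receptor, was among the most even of the 10. It had 13.1, 13.7 and 13.9 FPKM in cnd1-3, against 14.4, 15.2 and 14.3 in Col-0. The groups did not overlap but lay close together, with means of 13.5 ± 0.39 and 14.6 ± 0.484 FPKM (cnd1-3 and Col-0, SD, n = 3 each). The log2 fold change was -0.11 (interval -0.26 to 0.05, limma adjusted p = 0.352), and it was -0.05 after median-ratio scaling. NPR1 overlaps AT1G64270 and AT1G08667 on the opposite strand.

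The PR genes differed from one another. PR1 (AT2G14610), a small secreted protein of the CAP family and the usual marker of the hormone response, was nearly undetected in both genotypes. It had 2, 0 and 0 reads in the cnd1-3 libraries, against 0, 0 and 3 in Col-0, and 3 reads, the limit that a count of 0 allows, correspond to 0.109 to 0.150 FPKM per library. No fold difference was formed, and a difference below that limit was not detectable at this depth. The related gene PRB1 (AT2G14580) had 0 reads in all 6 libraries. By the likeness rule AT2G26600, AT4G19650 and BOU followed PR1 most closely (Pearson's r of 0.971, 0.969 and 0.963 over 6 libraries), a likeness that rests on the 2 libraries with PR1 reads.

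PR5 (AT1G75040, chromosome 1, 28177670 to 28179022, plus strand), a thaumatin-like protein, rose in cnd1-3. It had 18, 9.95 and 15.5 FPKM in cnd1-3, from 439, 241 and 392 reads, against 8.37, 8.57 and 8.63 in Col-0, from 279, 247 and 220 reads. All cnd1-3 libraries were above all Col-0 libraries, but cnd1-3 replicate 2 was close to them while replicates 1 and 3 were far above. The means were 14.5 ± 4.11 FPKM in cnd1-3, against 8.52 ± 0.138 in Col-0 (SD, n = 3 each), a ratio of 1.7. The log2 fold change was 0.69 (SE 0.18, limma adjusted p = 0.0434). Without cnd1-3 replicate 2 it was 0.93 (adjusted p = 0.00283), and the call was lost without any one of the other libraries, with adjusted p = 0.12 and 0.114 where cnd1-3 replicate 1 or 3 was left out and 0.1, 0.117 and 0.0748 where Col-0 replicate 1, 2 or 3 was. With no minimum level or robust fitting it was lost as well (0.0828 and 0.0562).

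PR2 (AT3G57260, BGL2 in the annotation, chromosome 3, 21188397 to 21189967, minus strand), a beta-1,3-glucanase, did not pass. It had 3.43, 0.643 and 2.64 FPKM in cnd1-3, from 113, 21 and 90 reads, against 0.289, 0.515 and 1.05 in Col-0, from 13, 20 and 36 reads. Replicates 1 and 3 of cnd1-3 were above every Col-0 library, and replicate 2 lay below Col-0 replicate 3; it was also the lowest cnd1-3 library for PR5. The mean was 2.24 ± 1.44 FPKM in cnd1-3, against 0.617 ± 0.389 in Col-0 (SD, n = 3 each), a ratio of 3.63, with a log2 fold change of 1.17 (interval 0.17 to 2.17, unadjusted p = 0.0266, limma adjusted p = 0.121). Of the 6 fits that each left out 1 library, PR2 passed only without cnd1-3 replicate 2, its lowest cnd1-3 library (log2 fold change 1.71, limma adjusted p = 0.0143). The other such fits gave adjusted p of 0.094 to 0.322. The neighbouring glucanase gene BG3 (AT3G57240) had 0.929, 0.452 and 1.27 FPKM in cnd1-3, against 0.352, 0.625 and 0.706 in Col-0. The same replicate 2 of cnd1-3 was the lowest of its group (log2 fold change 0.35, limma adjusted p = 0.408). From BG1 (AT3G57270), another glucanase gene beside PR2, 4 reads were found in cnd1-3 and 1 in Col-0.

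**Figure D2:**
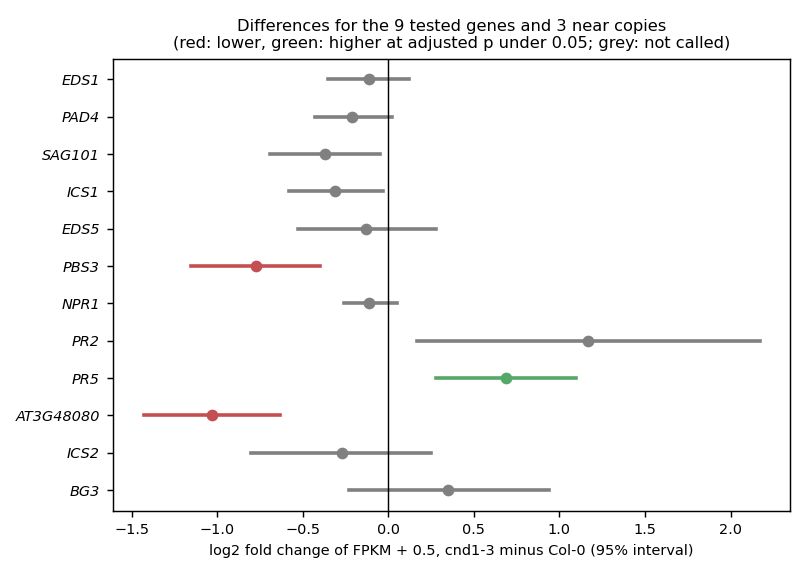
Log2 fold change of FPKM plus 0.5, cnd1-3 minus Col-0, for the 9 tested genes and 3 related copies, with 95% intervals from limma; red and green mark adjusted p under 0.05, lower and higher, and grey genes that did not pass. PBS3 at -0.77 and AT3G48080 at -1.03 lie left of 0 and PR5 at 0.69 right of it, and PR2 has the widest interval, 0.17 to 2.17.

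The spread between libraries of a genotype was itself uneven. The coefficient of variation of PR2 was 64.2% in cnd1-3 and 63.1% in Col-0, larger than in 98.9% and 99% of tested genes. That of PR5 was 28.4% in cnd1-3, larger than in 92.6% of tested genes, and 1.62% in Col-0. For comparison, NPR1 varied by 2.88% in cnd1-3 and 3.31% in Col-0, and the median tested gene by 7.95% and 9.46% in the same order. The highest PR2 library was 5.34-fold above the lowest in cnd1-3 and 3.62-fold in Col-0. Replicate 2 was the lowest of the cnd1-3 libraries for 6 of the 9 tested genes (EDS1, PAD4, SAG101, EDS5, PR2 and PR5), beside 25.8% of all tested genes. The order of the mean levels also differed between genotypes. In cnd1-3 it ran PR5, NPR1, EDS1, PAD4, SAG101, ICS1, PR2, PBS3, EDS5 and PR1, where the library values of PR5 overlapped those of NPR1 and EDS1, those of SAG101 overlapped ICS1, and those of PR2 overlapped SAG101, ICS1 and PBS3. In Col-0 it ran NPR1, EDS1, PR5, PAD4, SAG101, ICS1, PBS3, PR2, EDS5 and PR1, with overlaps between SAG101 and ICS1 and between PR2 and EDS5.

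**Figure D3:**
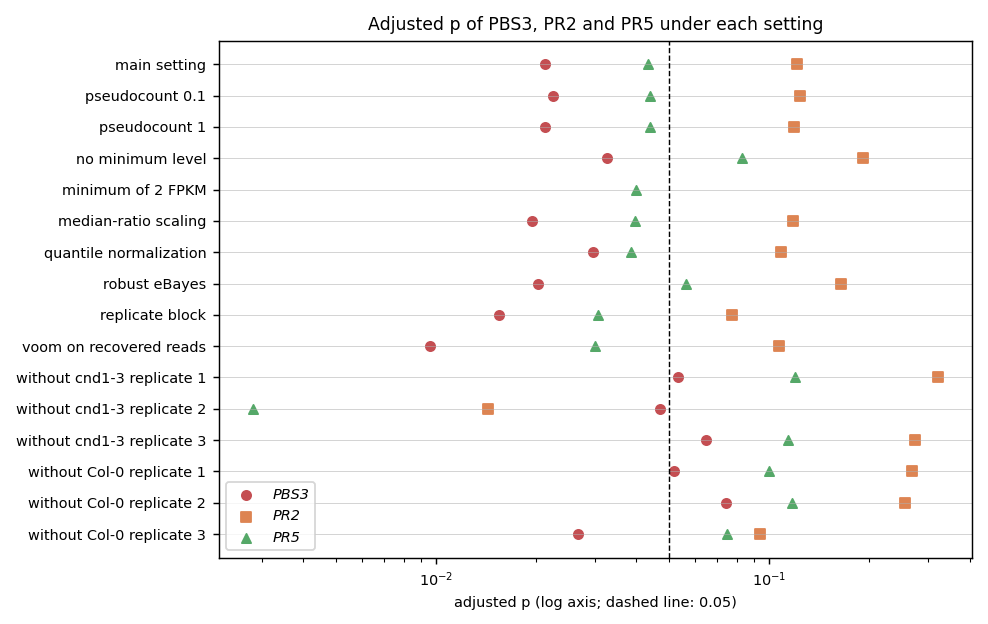
Adjusted p on a log axis for PBS3 (circles), PR2 (squares) and PR5 (triangles) under the main setting and 15 alternatives; the dashed line is 0.05. PBS3 and PR5 cross the line in several fits that leave out a library, and without cnd1-3 replicate 2 the values of PR5 and PR2 drop to 0.00283 and 0.0143. In every other fit that tested it, PR2 lies above the line.

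Further genes of the pathway were read from 7 lists of 67 genes, of which 51 were tested. In cnd1-3, 2 rose, 9 fell and 40 did not pass, or 21.6% called beside the 11.1% of all tested genes. The lists were chosen with earlier results of these data known, so these shares are no test of the pathway. The median log2 fold change was -0.11. The helper receptor genes that act with EDS1 (ADR1, ADR1-L1, ADR1-L2 and the CC-NBS-LRR genes AT5G66900 and AT5G66910) were listed together with NDR1. Of these 6 genes, all tested, NDR1 fell, 0 rose and the 5 receptor genes did not pass (limma adjusted p of 0.139 to 0.746). NDR1 (AT3G20600) is itself neither a helper receptor nor a partner of EDS1 but a plasma membrane protein needed by another class of immune receptors. It had 8.21, 9.91 and 10.4 FPKM in cnd1-3, against 18, 22 and 18.2 in Col-0. The groups were well apart, with a 2.04-fold lower mean in cnd1-3 (log2 fold change -0.99, SE 0.11, limma adjusted p = 0.00142). The call held in all 15 alternatives.

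The transcriptional regulators of ICS1 gave 1 fall, 0 rises and 11 genes that did not pass among 12 tested. CAMTA3 (AT2G22300), a calmodulin-binding repressor of salicylic acid genes, averaged 5.91 ± 0.272 FPKM in cnd1-3, against 7.44 ± 0.221 in Col-0 (log2 fold change -0.31, limma adjusted p = 0.0415), and its call was lost without each of the 6 libraries in turn (0.0733 to 0.144), with no minimum level (0.064) and with median-ratio or quantile scaling (0.0605 and 0.0905). It overlaps AT2G22310 on the opposite strand. Neither of the ICS1 activators CBP60g and SARD1 passed. CBP60g had 2.41, 1.27 and 1.43 FPKM in cnd1-3, against 1.54, 3.15 and 2.48 in Col-0. SARD1 had 2.26, 1.23 and 2.1 FPKM in cnd1-3, against 0.726, 2.01 and 1.38 in Col-0. Both overlapped between the genotypes (limma adjusted p = 0.349 and 0.426), and both had their lowest cnd1-3 value in replicate 2.

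Of 11 other genes of salicylic acid synthesis and conversion 7 were tested, of which 1 rose, 2 fell and 4 did not pass. UGT74F2 (AT2G43820), a glucosyltransferase of salicylic acid, rose, with 24.2, 21.8 and 31.2 FPKM in cnd1-3 against 13.2, 8.89 and 14.4 in Col-0. The groups did not overlap (log2 fold change 1.06, SE 0.18, limma adjusted p = 0.00905). The call held in all 15 alternatives. UGT74F2 and its copy UGT74F1 share an identical stretch of at most 48 bases, and UGT74F1 averaged 0.931 ± 0.156 FPKM in cnd1-3, against 0.865 ± 0.245 in Col-0. UGT74F2 overlaps AT2G43830 on the opposite strand. The phenylalanine ammonia-lyase genes PAL1 and PAL2, which open the phenylpropanoid route, both fell. PAL2 averaged 4.67 ± 0.185 FPKM in cnd1-3, against 7.30 ± 0.658 in Col-0 (log2 fold change -0.59, limma adjusted p = 0.00595), with the call kept in all 15 alternatives. PAL1 averaged 2.31 ± 0.324 FPKM in cnd1-3, against 4.01 ± 1.08 in Col-0 (-0.66, adjusted p = 0.0425) and kept its call only without Col-0 replicate 1 (0.0444) when 1 library was left out, the others reaching 0.133; it was also lost with no minimum level (0.0833) and quantile normalization (0.0545). EPS1, which acts after PBS3, averaged 2.37 ± 0.13 FPKM in cnd1-3, against 3.14 ± 0.346 in Col-0, without passing (adjusted p = 0.09).

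**Figure D4:**
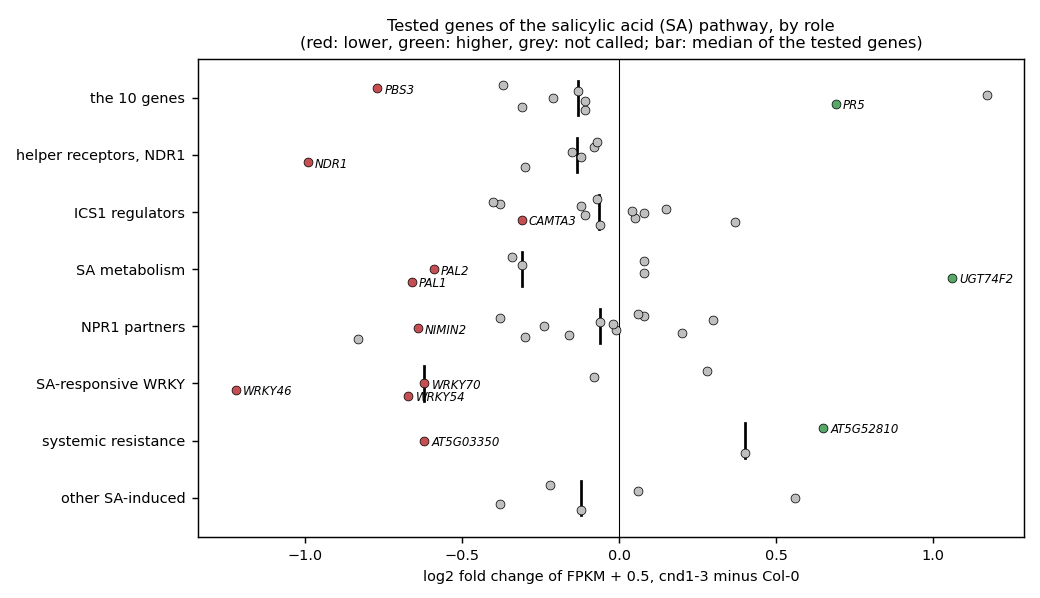
Log2 fold change of FPKM plus 0.5, cnd1-3 minus Col-0, for each tested gene of the 10 and of the 7 related lists; red and green points are called lower and higher, grey points were not called, and black bars are list medians. Called genes lie on both sides of 0, from WRKY46 at -1.22 to UGT74F2 at 1.06.

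Around NPR1, 1 of 13 tested relatives and partners fell, 0 rose and 12 did not pass. NIMIN2, which codes for an NPR1-interacting protein, averaged 1.82 ± 0.304 FPKM in cnd1-3, against 3.15 ± 0.66 in Col-0 (log2 fold change -0.64, limma adjusted p = 0.0408), and kept its call only without Col-0 replicate 3 (0.0159) when 1 library was left out, the others reaching 0.129; no minimum level (0.0774), quantile normalization (0.0803) and voom (0.0776) ended it too. The receptors NPR3 and NPR4 averaged 6.05 ± 0.556 and 15.9 ± 0.883 FPKM in cnd1-3, against 5.67 ± 0.307 and 16.1 ± 1.74 in Col-0, and did not pass (limma adjusted p = 0.602 and 0.93). Of 5 tested salicylic acid responsive WRKY factors, 3 fell, 0 rose and 2 did not pass, beside 7.59% of all tested genes called lower. With a library left out, 1 to 3 of these factors were called. WRKY54 and WRKY70 are related factors that restrain salicylic acid production. WRKY54 had 20.9, 22.2 and 24.5 FPKM in cnd1-3, against 33.2, 35 and 40.4 in Col-0 (log2 fold change -0.67, SE 0.09, limma adjusted p = 0.00346), with the call kept in all 15 alternatives. WRKY70 had 33.0, 27.5 and 26 FPKM in cnd1-3, against 38.1, 48.8 and 46.9 in Col-0 (-0.62, SE 0.12, adjusted p = 0.0132; 0.0558 without Col-0 replicate 2). For both genes every cnd1-3 library was below every Col-0 library. WRKY46 averaged 0.768 ± 0.319 FPKM in cnd1-3, against 2.54 ± 1.02 in Col-0 (-1.22, SE 0.29, adjusted p = 0.0293). It lost the call without cnd1-3 replicate 2 or 3 (0.0795 and 0.081) and Col-0 replicate 2 or 3 (0.105 and 0.0722), and with no minimum level (0.0601).

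Of 7 genes of systemic resistance, 1 rose, 1 fell and 1 did not pass. The other 4 lay below the minimum level, among them ALD1 and FMO1, the enzymes that begin and end the synthesis of N-hydroxypipecolic acid, with 0 and 2 reads over all 6 libraries. AT5G52810, an NAD(P)-binding Rossmann-fold protein in the annotation, rose, with 11.4, 9.43 and 11.4 FPKM in cnd1-3 against 6.78, 6.39 and 6.87 in Col-0. The groups did not overlap (log2 fold change 0.65, SE 0.09, limma adjusted p = 0.00443). The call held in all 15 alternatives. AT5G52810 overlaps AT5G52800 on the same strand. AT5G03350, a legume lectin family protein, fell (24.5 ± 5.31 FPKM in cnd1-3, against 37.5 ± 1.55 in Col-0, log2 fold change -0.62, limma adjusted p = 0.0225), but not without cnd1-3 replicate 1 or 2 (0.052 and 0.0658) or Col-0 replicate 1 or 2 (0.0607 and 0.081). It overlaps AT5G03345 on the opposite strand. Among 7 other genes induced by salicylic acid 5 were tested. Both limma and voom called 0 of them, and 0 had an unadjusted p under 0.05. PCC1 averaged 564 ± 101 FPKM in cnd1-3, against 536 ± 10.9 in Col-0, and ACD6 115 ± 14 and 134 ± 20.5 in the same order (adjusted p = 0.785 and 0.265). Of 5 jasmonate and ethylene defence markers only PR4 was tested. Its mean was 2.39 ± 1.25 FPKM in cnd1-3, against 2.56 ± 0.899 in Col-0 (limma adjusted p = 0.821). Of these markers 0 were called by limma, 0 by voom, and 0 had an unadjusted p under 0.05.

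**Figure D5:**
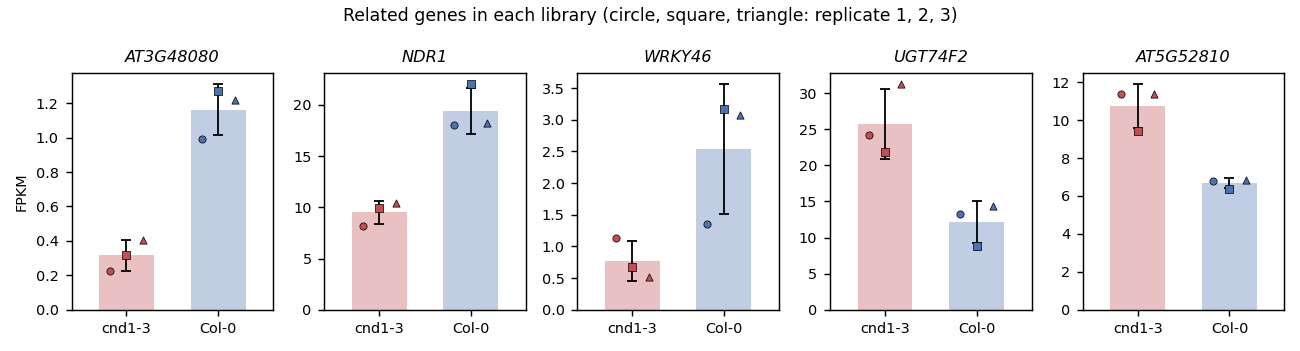
FPKM in each library for AT3G48080, NDR1, WRKY46, UGT74F2 and AT5G52810, cnd1-3 on the left and Col-0 on the right; bars are means and error bars the SD (n = 3). In all 5 panels the points of the genotypes do not overlap, with the cnd1-3 points lower in the first 3 panels and higher in the last 2.

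Of 5 markers of rapid stress responses 3 fell, 0 rose and 2 did not pass, beside 7.59% of all tested genes called lower. The markers were chosen with earlier results of these data known. Their summed level was 24.9 to 73.5 FPKM in cnd1-3 and 65.8 to 149 in Col-0. ORA47, an ERF-type transcription factor gene, had 1.97, 1.46 and 0.681 FPKM in cnd1-3, against 19, 50.5 and 43.6 in Col-0 (log2 fold change -4.30, limma adjusted p = 0.000479). CBF1, a cold response regulator, had 0.626, 0.223 and 0.356 FPKM in cnd1-3, against 3.97, 8.4 and 8.15 in Col-0 (-2.98, adjusted p = 0.000596). ZAT12, a zinc finger factor induced by light and oxidative stress, had 2.93, 1.57 and 1.94 FPKM in cnd1-3, against 12.9, 25.3 and 21.4 in Col-0 (-2.93, adjusted p = 0.000488). For these 3 genes the genotypes did not overlap, whereas for the touch-induced genes TCH3 and TCH4 they did. TCH3 had 13, 5.92 and 8.47 FPKM in cnd1-3, against 11.8, 20 and 18.2 in Col-0 (limma adjusted p = 0.073; it passed in 2 of the 6 fits without a library, the lowest value being 0.03). TCH4 had 55, 15.7 and 22 FPKM in cnd1-3, against 18.1, 44.5 and 35.4 in Col-0 (adjusted p = 0.814), so that its highest and its lowest library were both of cnd1-3. The part of the stress markers in the falls of PBS3, NDR1 and the WRKY genes was not tested. Of the 4 leaf markers LHCB1.1, a light-harvesting protein gene, fell (1532 ± 254 FPKM in cnd1-3, against 3569 ± 804 in Col-0, limma adjusted p = 0.00373), and 3 did not pass. Exon sequence that LHCB1.1 may share with other genes was not examined. The senescence marker SAG12 was listed at 0 in all libraries, and SAG13 reached at most 0.317 FPKM. In bulk tissue fewer expressing cells and less RNA per cell cannot be told apart.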

How the data were processed

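The deposited values are FPKM, 1 column per library. Named in the submitters' processing notes are the build TAIR10 and the tools HISAT2, Subread, featureCounts and DESeq2, without settings, versions or roles. Per the labels' protocols, oligo-dT-selected mRNA was sequenced as 150-base read pairs. Gene names, exon lengths, coordinates and sequences came from RefSeq's TAIR10.1, whose annotation holds 32548 of the 32948 genes. FPKM times exon length gave whole reads (tolerance 0.01) for 99.34% to 99.37% of values above 0 in each library, which gave the depths and read numbers; these are not the authors' count table, and limits on reads cover counting error only.

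For the 17096 genes averaging at least 0.5 FPKM, log2 of FPKM plus 0.5 was fitted with limma 3.58.1 (trended eBayes, R 4.3.3). The test was two-sided, and p-values were adjusted by Benjamini and Hochberg over all of them. The script was first tested on simulated data. The 15 alternatives were pseudocounts of 0.1 and 1, no minimum or 2 FPKM, 2 other scalings, robust fitting, a replicate block, voom on recovered reads and leaving out each library. All 10 genes are named, with up to 4 called genes of the largest change per related list, or the 2 of highest mean where none was called, the near copies, and the 3 genes most correlated with ICS1 and PR1. Outside this rule, and after their values were seen, CBP60g, SARD1, EPS1, NPR3, NPR4, UGT74F1, ALD1, FMO1, TCH3, TCH4, the uncalled receptor genes listed with NDR1 and the overlapping genes were named, as were the genes of the closing section. Departing from the rule, only PR4 was named among the jasmonate and ethylene markers, being the only tested gene there. The 10 genes and the lists were chosen with earlier results of these data known. Tables and figures used Python 3.11.15, pandas 2.3.3 and matplotlib 3.10.9.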

Additional observations from a re-analysis of the deposited data

How the results depend on the processing

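No fold change of the 9 tested genes changed sign in any alternative that tested it. PR5 stayed at 0.69 but did not pass with no minimum level (adjusted p = 0.0828) or with robust fitting (0.0562), so that 0 of the 10 genes were higher there; at a minimum of 2 FPKM, where PBS3 was not tested, 0 were lower. Leaving out each library in turn, 0 to 2 of the 10 were higher and 0 to 1 lower, and the log2 fold changes lay between -0.86 and -0.66 for PBS3, 0.52 and 0.93 for PR5, 0.82 and 1.71 for PR2, with ranges of -0.21 to -0.01 for EDS1, -0.30 to -0.16 for PAD4, -0.51 to -0.29 for SAG101, -0.40 to -0.24 for ICS1, -0.18 to -0.09 for EDS5 and -0.12 to -0.08 for NPR1. EDS5 was tested in only 5 of these fits. Without Col-0 replicate 2, its highest library, it was below the minimum level. All of these fits had fewer samples. Over all genes the count of higher genes was 598; it was 946 with median-ratio scaling, 980 with quantile normalization and 259 to 546 with a library left out; the count of lower genes was 1298, and 611 to 1291 with a library left out. ICS1 regulators gave 0 calls with no minimum level and with either other scaling (median-ratio or quantile), and 2 with voom; NPR1 partners gave 0 with no minimum level and with voom. With a library left out the calls were 0 to 1 for ICS1 regulators, 2 to 3 for other synthesis and conversion genes, 0 to 2 for NPR1 partners, 1 to 3 for WRKY factors and 1 to 2 for systemic resistance genes. The cause was not tested. Replicate numbers are shared by the genotypes. Deviations of same-numbered libraries correlated at 0.032, 0.157 and 0.263 for replicates 1, 2 and 3. Replicates 2 and 3 of cnd1-3 correlated best with their own number in Col-0, and replicate 1 with Col-0 replicate 2. These values cannot decide whether the libraries were paired, because they come from only 3 pairs. With the replicate block 1020 genes were higher and 1859 lower. The calls were then 2 for ICS1 regulators, 2 for NPR1 partners and 2 for other induced genes. PBS3 and PR5 were called there (limma adjusted p = 0.0155 and 0.0307). Depth limits genes with few reads, among them EDS5, PR1 and AT3G48080, with 74, 2 and 55 reads over the cnd1-3 libraries and 104, 3 and 237 over the Col-0 libraries.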

Other observations

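For several genes of the related lists the cnd1-3 libraries differed from each other in a similar way; these genes were named after their values were seen. DMR6, a salicylic acid hydroxylase, had 5.25, 2.29 and 4.13 FPKM in cnd1-3 replicates 1, 2 and 3, against 2.71, 3.39 and 4.53 in Col-0. WRKY18 had 3.83, 2.12 and 2.76 FPKM in cnd1-3, against 1.62, 3.04 and 2.25 in Col-0. WRKY53 had 1.15, 0.537 and 0.944 FPKM in cnd1-3, against 0.629, 1.23 and 0.993 in Col-0. In each of these genes cnd1-3 replicate 2 was the lowest of its group and replicate 1 the highest, as for PR2 and PR5, and the genotypes overlapped. From AT4G10500, listed with the conversion genes and below the minimum level, came 11, 0 and 0 reads in cnd1-3, against 1, 2 and 4 in Col-0. Replicate 2 was the lowest cnd1-3 library in 23 of the 51 tested genes of the 7 related lists (45.1%), beside 25.8% of all tested genes. Within Col-0, replicate 1 was the lowest library for the same 3 tested genes DMR6, WRKY18 and WRKY53. The share of all tested genes with Col-0 replicate 1 lowest was not computed, so this has nothing to be compared with.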
